A study of Xenopus laevis with 3 samples.

Results

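Coding variants were examined in 3 kinase anchoring scaffold genes of the African clawed frog Xenopus laevis, akap9, akap13-like and pde4dip. The frog is allotetraploid, so each gene was looked up by its symbol as a pair of homeologs, a long (L) and a short (S) subgenome copy. All 6 copies were present among the 11603 genes in which the authors listed at least 1 amino acid changing (missense) site, and they held 109 of the 29008 missense sites. The pairs akap9 and akap13-like had been selected on their missense counts, which were much higher in S than in L, and pde4dip was selected on the predicted damaging sites in both of its copies. Those counts are therefore given as a description, without a test.

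The variants came from whole tadpoles sequenced as RNA at Nieuwkoop-Faber stage 42, in pools of 10 animals per cross. There were 3 libraries, 1 per group: offspring of inbred albino parents, offspring of inbred pigmented J strain parents, and offspring of matings between those populations in both directions. No agent, transgene or targeted allele is part of the design. The strain letter codes in the labels contradict each other for both inbred groups. The groups, and the name J strain, therefore follow the sample titles, and no other letter code is used here. Sequencing was stated as between 30000000 and 47000000 paired-end reads of 100 bases per library. The tables combine the libraries: no column names a strain or cross, no site can be assigned to one, and no spread between replicates could be measured. They hold variant sites and not expression levels, so the tissue could not be checked against marker genes, and read depth per site was not analysed here.

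A-kinase anchoring proteins hold protein kinase A, and often phosphatases, phosphodiesterases and other kinases, at a defined place in the cell, so that cyclic AMP signals act locally. In mammals AKAP9 is a giant coiled-coil protein of the centrosome and the Golgi apparatus, where it also takes part in microtubule nucleation. Mammalian AKAP13, also called AKAP-Lbc, joins an anchoring region for protein kinase A to a guanine nucleotide exchange domain. Mammalian PDE4DIP, or myomegalin, is a coiled-coil protein of the Golgi and centrosome that binds the cyclic AMP phosphodiesterase PDE4D and AKAP9.

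The centrosomal and Golgi scaffold akap9 held the most variation. The akap9.S copy (Xelaev18032958m) held 37 missense and 26 synonymous sites, and akap9.L (Xelaev18030851m) held 11 and 14. Among the 11603 genes akap9.S had rank 14 for missense and rank 45 for synonymous sites. The anchoring gene akap13-like held 26 missense and 12 synonymous sites in S (Xelaev18020488m), against 7 and 6 in L (Xelaev18018375m). The phosphodiesterase-binding gene pde4dip was more even, with 16 missense and 13 synonymous sites in S (Xelaev18025597m) and 12 and 8 in L (Xelaev18023590m). For comparison, the median listed gene held 1 missense site and 2 synonymous sites. These counts and ranks were not divided by protein length. The last missense site lay at residue 4019 in akap9.S, against 2290 in akap13-like.S and 2330 in pde4dip.S.

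In all 3 pairs the S copy held more sites of both kinds. S copies exceeded L copies in missense sites in 39.9% of the 1329 pairs with both copies listed, and nothing is read from this share because the choice of akap9 and akap13-like used that contrast. The missense count of S was 3.36 times that of L for akap9, 3.71 times for akap13-like and 1.33 times for pde4dip. For synonymous sites, which leave the protein unchanged, the ratios were 1.86, 2.0 and 1.62. Among named pairs akap9 had the third largest difference in missense sites, 26, level with nestin in the opposite direction. The next place after kmt2c was shared by akap13-like and prrc2a, with tp53bp1-like in the opposite direction, at a difference of 19. The next pair below these was fgfbp3, with a difference of 15.

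**Figure D1:**
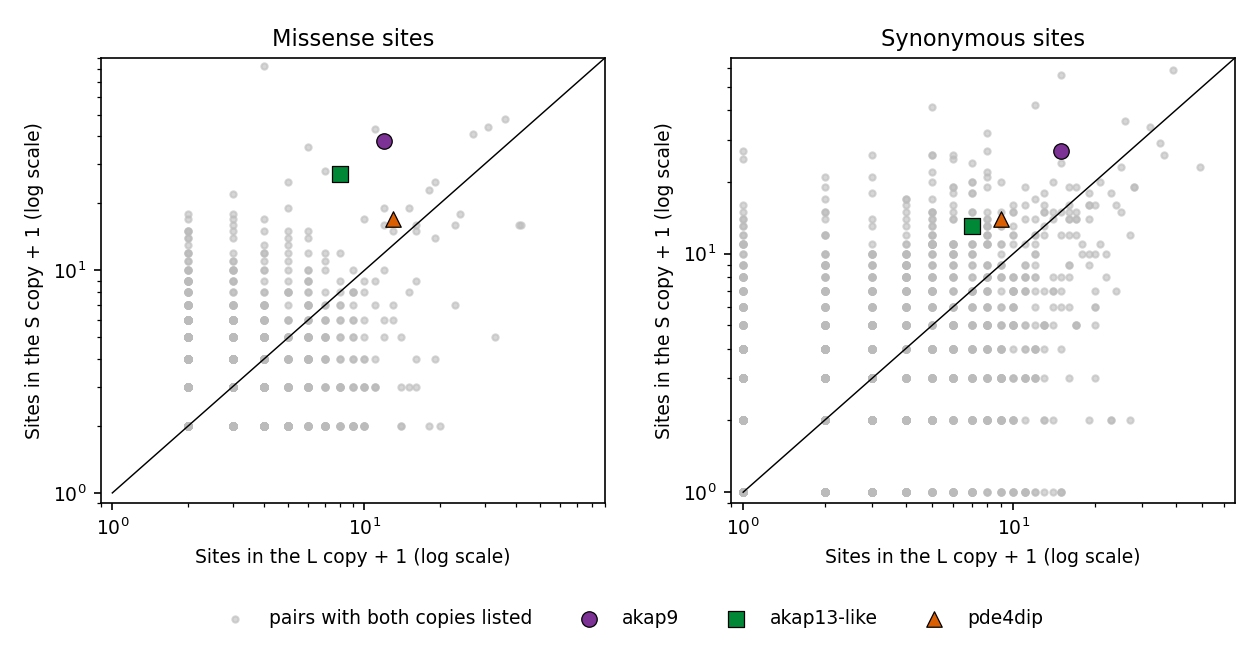
Number of missense sites (left) and synonymous sites (right) in the L copy (horizontal) and the S copy (vertical) of each pair, each plus 1 on log axes, for the 1329 pairs with both copies listed. The line marks equal numbers; akap9 (11 in L and 37 in S) and akap13-like (7 and 26) lie far above it for missense sites, and pde4dip (12 and 16) lies close to it.

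Most of the surplus in S consisted of missense sites for which PolyPhen-2, the program that grades amino acid changes as benign, possibly damaging or probably damaging, gave no prediction. Of the 26 additional missense sites of akap9.S, 19 had no prediction and 7 had one. Of the 19 additional sites of akap13-like.S, 15 had none and 4 had one. In pde4dip all 4 additional sites were predicted.

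The missense fraction is the share of missense sites among all coding variant sites of a gene. In each of the 6 copies it was above 42.9%, the fraction over the pooled sites of all listed genes. The median listed gene had a fraction of 50%, and akap9.L lay below that. The fraction was 44.0% in akap9.L (95% Wilson interval 26.7 to 62.9) and 58.7% in akap9.S (46.4 to 70.0). In akap13-like it was 53.8% in L (29.1 to 76.8) and 68.4% in S (52.5 to 80.9). These intervals cover counting error only, and those of L and S overlap within both pairs. The missense counts on which both pairs were selected enter this fraction. Nothing is therefore read from the overlap, or from where the intervals lie against 42.9%. Genes with many missense sites have higher fractions by the way they are picked: the 718 genes with at least 7 missense sites, the lowest number among the 6 copies, had 52.8%.

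The missense fraction of pde4dip was 60.0% in L (38.7 to 78.1) and 55.2% in S (37.5 to 71.6), again with overlapping intervals. It is given without a test, and nothing is read from the overlap, because the damaging sites on which this pair was selected are a part of its missense sites.

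The 3 genes differed in how far their changes could be graded. The selection bears on this, because a damaging site is always a predicted site and pde4dip was selected on such sites. Most of the missense surplus on which akap9 and akap13-like were selected was itself unpredicted. The difference between the genes is therefore only a description. In akap9.S 25 of 37 missense sites had no prediction (67.6%, Wilson interval 51.5 to 80.4), and in akap13-like.S 19 of 26 (73.1%, 53.9 to 86.3). The L copies were alike, with 6 of 11 in akap9.L (54.5%, 28.0 to 78.7) and 4 of 7 in akap13-like.L (57.1%, 25.0 to 84.2). In pde4dip every one of the 28 missense sites was predicted; a count of 0 in 28 allows a share without a prediction of up to 10.7%. Having no such site was usual, as it was seen in 64.2% of the genes with at least 7 missense sites. Over all listed genes 16.9% of missense sites had no prediction, and in genes with at least 7 missense sites 22.6%. Among the 327 genes with at least 10 missense sites, 52 had a share without a prediction at or above that of akap9.S, 45 at or above that of akap13-like.S and 67 at or above that of akap9.L, and 18.9% of all listed genes held any such site. All 54 unpredicted sites of akap9 and akap13-like had 0 aligned residues, so the alignment used by the program covered none of these positions. No predicted site in the whole table had 0. Whether homologous sequences exist for these positions was not analysed here.

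**Figure D2:**
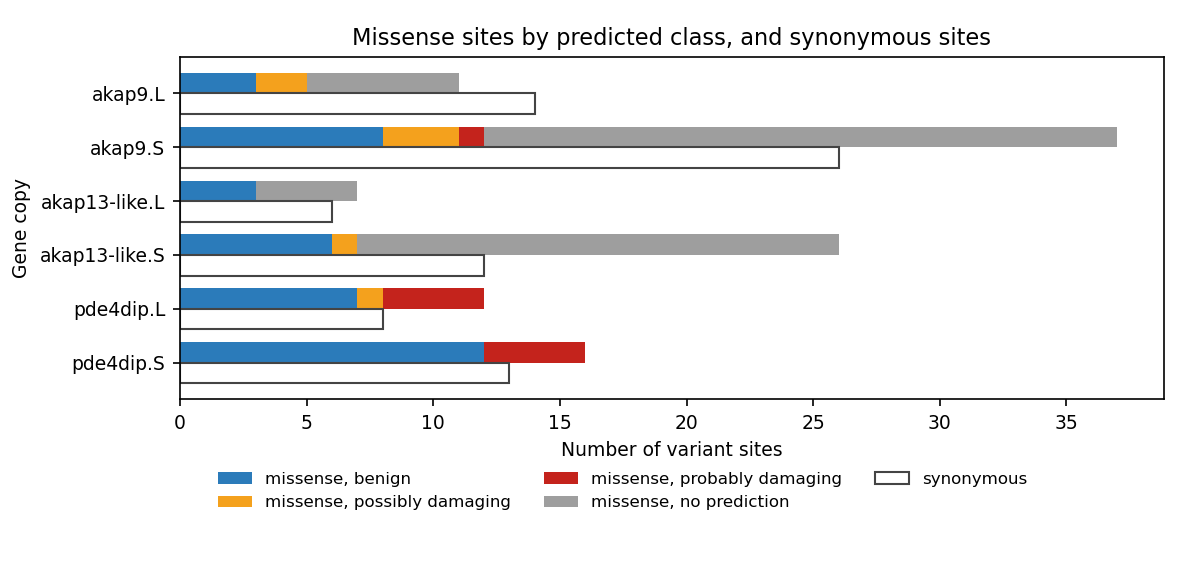
Number of variant sites in each copy; the upper bar of each pair stacks missense sites by predicted class and the open lower bar gives synonymous sites. Sites without a prediction make up 25 of 37 missense sites in akap9.S and 19 of 26 in akap13-like.S, and 0 in both pde4dip copies.

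Predicted and unpredicted sites of akap9 lay in separate stretches of the protein. Positions are counted from 1 in the authors' own protein model of each copy, and the models of L and S were not aligned to each other, so equal numbers need not be equivalent residues. No protein sequence was used here, so each site is shown as its reference residue, its position and the variant residue. The first 10 missense sites of akap9.S, from E293K to I2525N, were all predicted. Of the 27 sites from A2619T to E4019Q, 25 had no prediction, and the exceptions were S2624N and D2958V, which rested on 3 and 2 aligned residues. In akap9.L the order was the opposite. Its 6 sites between L487M and S1000C had no prediction, and the 5 sites from I3167V onwards were all predicted. Between these groups lay 2167 residues without a listed missense site.

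The densest stretch of 150 residues in akap9.S ran from S3035C to S3166A and held 8 missense sites, all unpredicted. They were S3035C, G3046E, T3049P, E3095D, D3101E, M3131I, C3142F and S3166A. Of these, S3035C and C3142F introduce or remove cysteine, T3049P creates a proline, and G3046E, E3095D and D3101E add or exchange an acidic residue. A further group of 6 predicted sites lay between G2384D and I2525N, with 69 to 114 aligned residues behind each.

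In akap13-like.S the first 17 missense sites, from S238C to A644P, had no prediction. The next 6, from H648R to D1015E, were predicted, mostly from a single aligned residue. The adjacent changes V1035E and E1036V had no prediction, and V2290M, predicted benign, lay 1254 residues farther on. The densest 150 residues held 9 sites, from Y519H to H648R, and 8 of these were unpredicted: Y519H, V527F, D534E, A541T, L603F, E608K, G614D and A644P. In akap13-like.L the 4 sites D61Y, C79R, E444K and V453L had no prediction, and F635I, A691T and N779I were benign. No missense site of akap13-like.L was listed beyond residue 779.

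The sites of pde4dip were spread from residue 793 to 1996 in L and from 343 to 2330 in S. The densest 150 residues held 3 sites in L, from L1281S to D1318E, and 4 in S, from V966A to S1043R. Median distances between neighbouring sites were 105 residues in pde4dip.L and 78 in pde4dip.S, against 33 in akap9.S and 23 in akap13-like.S. The copies akap9.L and akap13-like.L had medians of 95 and 72. The 2 copies with the most missense sites had the shortest distances. Distances shorten as sites are added, and both pairs had been selected on missense counts, so nothing further is read from this. Distances in other genes with similar counts were not analysed here.

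**Figure D3:**
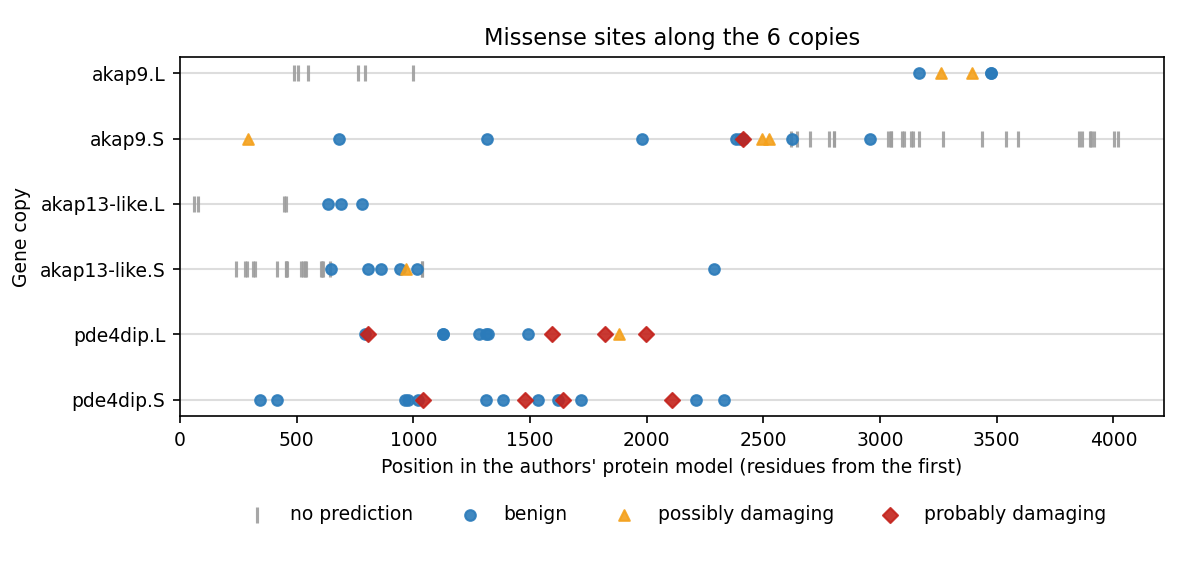
Position of every missense site along the authors' protein model of each copy (residues), with the symbol giving the predicted class. Grey strokes are sites without a prediction. In akap9.S they make up the stretch from residue 2619 onwards, apart from the predicted sites S2624N and D2958V. In akap9.L they lie at residues 487 to 1000, and in akap13-like.L at residues 61 to 453. In akap13-like.S they lie at residues 238 to 644 and at 1035 and 1036. They are absent from both pde4dip copies.

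Predicted damaging sites, possibly and probably damaging together, numbered 16 in the 6 copies and were found in 5 of them. At least 1 such site was present in 29.9% of all listed genes and in 74.9% of those with at least 7 missense sites. Both pde4dip copies held such sites by the way the pair was selected, so they are not set against these shares. Of the akap9 and akap13-like copies, all but akap13-like.L held at least 1, which is usual in genes with that many missense sites. The copies akap9.S, pde4dip.L and pde4dip.S held at least 4. This was the case for 0.922% of all listed genes, 13.4% of those with at least 7 missense sites and 23.9% of those with at least 10. The named copies all held at least 10 missense sites. For pde4dip nothing is read from these shares. In the deposited table the lowest predicted probability of a possibly damaging site is 0.447, and that of a probably damaging site is 0.909.

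In akap9.S 4 of 12 predicted sites were damaging (33.3%, Wilson interval 13.8 to 60.9). The highest probability was that of Q2414K, 0.942 on 74 aligned residues, the only probably damaging site of the akap9 and akap13-like pairs. Next to it lay V2413E, which had a probability of 0 on the same number of aligned residues. The sites I2525N and T2492K followed, with probabilities of 0.864 and 0.796 on 110 and 114 aligned residues. The first site of the copy, E293K, had 0.497 on 4. The other akap9.S sites with a prediction were benign, among them K1978R at 0.244 and E2399Q at 0.08, on 75 and 69 aligned residues. Thus 3 of the 4 damaging sites fell in the group between residues 2384 and 2525.

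In akap9.L 2 of 5 predicted sites were damaging (40.0%, 11.8 to 76.9). The site V3262I reached 0.886 on 61 aligned residues and L3393M 0.826 on 2. Residue 3475 carried a pair of different changes, R3475K (0.146) and R3475S (0.412), both benign on 2 aligned residues. It was the only position in the 6 copies with more than a single variant residue.

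In akap13-like only E970K of the S copy was damaging, with a probability of 0.497 on a single aligned residue, or 1 of 7 predicted sites (14.3%, 2.57 to 51.3). The benign site H648R, at 0.412, lay just under the border of the possibly damaging class. In akap13-like.L 0 of 3 predicted sites were damaging, with an interval reaching to 56.1%.

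The damaging shares of akap9.L, akap9.S and akap13-like.S were compared with all other genes, whose share was 19.9%, since the choice of these pairs did not rest on it. None passed (two-sided Fisher's exact test, adjusted p = 1 for each over 1112 genes with at least 5 predicted sites), and akap13-like.L had too few predicted sites to be tested. With 5 predicted sites akap9.L could hardly pass over so many genes whatever its share, so nothing is read from its result. The test also had little power for akap13-like.S and akap9.S, with 7 and 12 predicted sites. The test called 0% of all genes, and 34 genes with a higher and 1 with a lower share had an unadjusted p under 0.05. With probably damaging sites only, the share of all other genes fell to 7.0%. The share was then 8.33% in akap9.S and 0 in akap9.L and akap13-like.S. The comparison still did not pass by Fisher's exact test (adjusted p = 1 for each).

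Both copies of pde4dip held at least 4 damaging sites, which was the case for 3 pairs of 1329 (0.226%), the others being palb2 and kmt2c. This is a description, because damaging sites in both copies were the reason the pair was picked. In pde4dip.L 5 of 12 sites were damaging (41.7%, Wilson interval 19.3 to 68.0). The change L806F had the highest probability of the 55 predicted sites, 1, on 82 aligned residues. It was followed by Q1996K (0.986, 58 aligned residues), P1822S (0.97, 45) and E1595Q (0.926, 205). The change S1883N was possibly damaging (0.559, 49). All lay in the stretch from residue 806 to 1996.

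In pde4dip.S 4 of 16 sites were damaging (25.0%, 10.2 to 49.5), all of them probably damaging. The change R2110W, which replaces arginine with tryptophan, had a probability of 0.997 on 38 aligned residues. It also had the largest profile score difference of the 6 copies, 3.65, where a positive value means that the reference residue is more usual at that position among homologous sequences than the variant. The changes S1480N, S1043R and K1641R had probabilities of 0.976, 0.945 and 0.925, on 43, 28 and 112 aligned residues. The other 12 sites were benign with probabilities up to 0.161, that of M1385I.

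The alignments behind these grades differed in depth. The number of aligned residues at a predicted site had a median of 60 in pde4dip.L (45 to 205) and 35.5 in pde4dip.S (17 to 153), on either side of the 44 of all predicted sites. It was 69.5 in akap9.S (2 to 114), where 5 of 12 sites had fewer than 5 aligned residues. It was 2 in akap9.L and 1 in both akap13-like copies. In all, 17 of the 27 predicted sites of akap9 and akap13-like rested on fewer than 5 aligned residues (63.0%), against 0 of 28 in pde4dip and 21.3% of all predicted sites. Of the 16 damaging sites, 13 had at least 10 aligned residues, including all 9 of pde4dip and 4 of the 7 of akap9 and akap13-like.

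**Figure D4:**
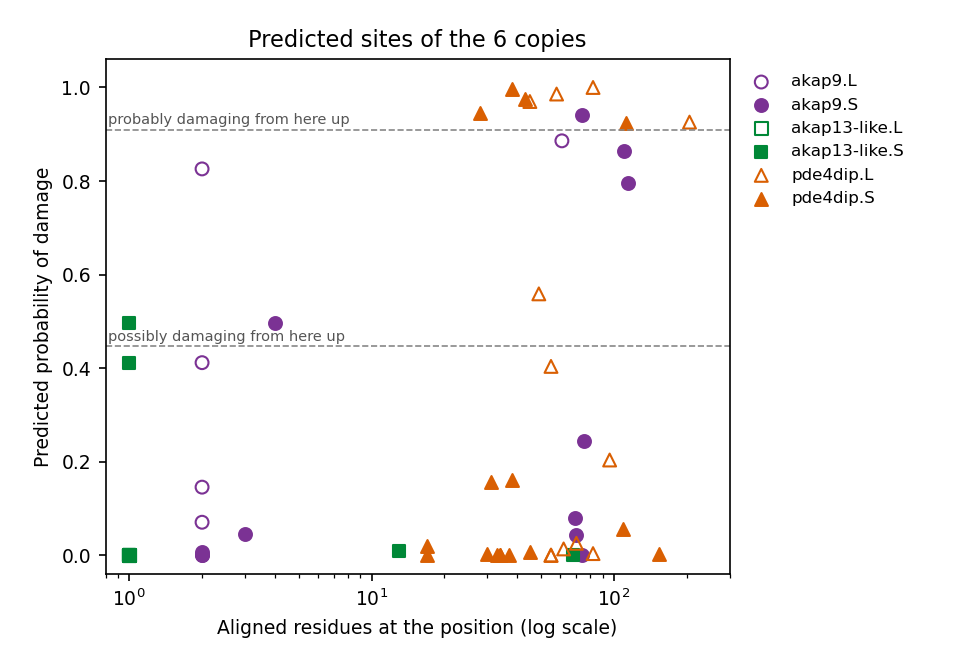
Predicted probability of damage against the number of aligned residues at the position (log axis) for the 55 predicted sites of the 6 copies; open symbols are L copies, filled symbols S copies. Sites of pde4dip all lie at 17 or more aligned residues, while 17 of the 27 sites of akap9 and akap13-like lie below 5.

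In the output format of PolyPhen-2, a further column of the deposited table is filled where a homologous sequence in the alignment already carries the variant residue. This was the case at 26 of the 39 benign sites of the 6 copies (66.7%), close to the 68.3% of all benign sites. Among them were 9 of 16 sites of pde4dip.S and 6 of 12 of pde4dip.L, such as S415A, V966A and L1281S. In akap9 it held for 5 sites, all in S: F1316V, K1978R, G2384D, E2399Q and V2413E. In akap13-like it held for 6, among them A691T and N779I in L and D1015E and V2290M in S. None of the 16 damaging sites had such a residue, which allows a share of up to 18.8%; over all damaging sites the share was 8.72%. The program uses the same alignment for its grades, so this column is not independent of them.

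The kinds of residue exchanged do not depend on the alignments and can be given for unpredicted sites too. All 109 changes can be produced by a single base change in a codon, as can all 29008 listed changes. Acidic residues were the reference at 23 of the 109 sites (21.1%), against 10.8% of all sites and 11.3% of the sites in genes with at least 7 missense sites. They numbered 11 of 48 in akap9, 9 of 33 in akap13-like and 3 of 28 in pde4dip. The most frequent exchanges were alanine to threonine, at 7 sites, among them A2619T, A3435T, A3852T and A3866T of akap9.S, and glutamate to lysine, at 6. Glutamate to lysine reverses the charge of the side chain, and these sites were E547K in akap9.L, E293K and E3540K in akap9.S, E444K in akap13-like.L, and E608K and E970K in akap13-like.S. The share of glutamate to lysine was 5.50% in the 6 copies and 1.32% over all sites. The amino acid composition of the proteins was not analysed here, so these shares were not set against the number of acidic residues available.

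The charge of the residue changed at 40 of the 109 sites (36.7%), compared with 28.0% of all sites and 30.3% of those in genes with at least 7 missense sites. By copy the share ranged from 16.7% in pde4dip.L and 18.2% in akap9.L to 46.2% in akap13-like.S. Among the 16 damaging sites it changed at 8, and 7 of these made the residue more positive: E293K, Q2414K and T2492K in akap9.S, E970K in akap13-like.S, E1595Q and Q1996K in pde4dip.L, and S1043R in pde4dip.S. The exception was R2110W. Over all genes the charge changed at 31.9% of the damaging sites, upwards at 812 and downwards at 721. Exchanges were also graded with the BLOSUM62 matrix, in which negative scores mark residues that rarely replace each other. Scores below 0 made up 57.7% of the changes in akap13-like.S and 42.9% in akap13-like.L, 45.9% in akap9.S and 36.4% in akap9.L, and 31.2% in pde4dip.S and 25.0% in pde4dip.L. Over all sites they made up 37.7%. In the unpredicted sites of the 6 copies they made up 51.9%, and in all unpredicted sites 46.4%.

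Other genes of the same pathways were described from lists of related genes, leaving out the 3 pairs. A copy enters only where it holds a missense site. Each copy with at least 5 sites was set against all other genes by a two-sided Fisher's exact test, adjusted by Benjamini-Hochberg over the 5005 genes tested, of which 0.619% passed above and 0.699% below the fraction of the other genes. The test treats sites as independent, although sites of a gene share their source. For scale, 4452 copies were listed among the 6832 named pairs, each with an L and an S copy. None of the 10 copies in the 5 pairs of protein kinase A subunits and inhibitors was listed. Of the other A-kinase anchoring genes, 18 of 30 copies were listed, with 59 missense and 125 synonymous sites. Their missense fraction over pooled sites was 32.1%, compared with 38.6% in all listed copies with a symbol. Many of these sites came from the arfgef2-like pair, with 2 missense and 24 synonymous sites in L and 9 and 22 in S. The median copy had a fraction of 43.1%, against 50% in all listed copies with a symbol. The 32.1% therefore does not describe the other anchoring genes in general. The median copy held 2 missense sites, against 1 over all listed genes. Of 14 copies tested, 0 passed with a higher and 1 with a lower fraction: arfgef2-like.L, which encodes an exchange factor for ARF GTPases at the Golgi, where 2 sites were missense and 24 synonymous (7.69%, Fisher's exact adjusted p = 0.0283). That call was lost with no minimum of sites (adjusted p = 0.0656) and when the 1% of genes richest in sites was left out (Fisher's exact adjusted p = 0.0555). Its homeolog arfgef2-like.S held the most missense sites of this list, 9, and 2 damaging sites.

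Centrosome and pericentriolar scaffold genes other than akap9 and pde4dip had 17 of 26 copies listed, with 52 missense and 44 synonymous sites (54.2%). None of the 10 copies tested passed in either direction. The highest counts were 9 missense sites in cep152-like.L, which encodes a centriole duplication factor, and 3 damaging sites in cep350.L, which encodes a large centrosomal protein, and also in cep57-like.S, a copy named after its value was seen. In this list 7.69% of missense sites had no prediction, and in the other anchoring genes 16.9%, against 9.86% in all listed copies with a symbol. The 10 unpredicted sites of the other anchoring genes lay in cmya5.L (7), cmya5.S (2) and mapt.L (1), copies picked out here by these counts. The 16.9% therefore rests mostly on the cmya5 pair and does not describe the other anchoring genes in general. Golgi matrix genes had 12 of 22 copies listed with 40.5% missense, led by both copies of tmf1, which encodes a golgin, with 6 missense sites each. Genes of cyclic AMP synthesis, breakdown and response had 6 of 32 copies listed, led by rapgef3.S with 3 missense sites, a copy of the cyclic AMP-activated exchange factor for Rap. The highest damaging count of a copy in that list was 1, in rapgef3.L, rapgef4-like.L and pde8b-like.S alike. None of the 5 Golgi copies and 3 cyclic AMP copies tested passed. An unadjusted p under 0.05 in the missense test was reached by 2 anchoring copies, 1 Golgi copy and 0 centrosome or cyclic AMP copies; over all genes tested it was reached by 10.8%. In the damaging share 0 copies of these lists passed by Fisher's exact test; 4 anchoring, 2 centrosome and 3 Golgi copies had enough predicted sites.

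The pairs nearest in pattern to each scaffold were found by the Euclidean distance over 4 values, the log2 of missense and synonymous sites plus 0.5 in L and S, among 1021 named pairs with both copies listed. For akap9 they were the cytolinker gene dst (distance 1.09), the histone methyltransferase gene kmt2c (1.19) and the DNA repair gene palb2 (1.22). In S, dst held 21 unpredicted sites of 42 missense sites, palb2 held 8 of 24 and kmt2c held 2 of 27. For akap13-like they were the nuclear envelope gene sun1 (1.02), pde4dip itself (1.08) and the adhesion receptor gene gpr116 (1.19). These 3 pairs held 0 unpredicted sites. For pde4dip they were sun1 (0.551), gpr116 (0.777) and the splicing factor gene srrm2 (0.939), and srrm2 held 15 unpredicted sites in L and 7 in S.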

How the data were processed

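The authors deposited 3 tables of the whole series. One gives counts of variant sites per gene (missense by class, and synonymous), as deposited by the authors. Another gives, per the file headers, each protein change with its PolyPhen-2 class, a predicted probability as a fraction, profile score values, a percent identity and the count of aligned residues. The last pairs gene names with L and S copies. CASAVA 1.8.2, Trimmomatic, SAMtools and TopHat are listed, without roles, per the submitters' processing notes; which variant caller and build were used is not given in the sources used here. Class counts of all 11603 genes equalled tallies of the per-site table; 1 header line counted as a gene was left out.

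Fisher's exact tests (two-sided, scipy 1.17.1) compared each gene with all others, with Benjamini-Hochberg adjustment over all genes tested. The missense test was tried on simulated data, and the damaging share test was not. A planned missense test of pde4dip was left out because its damaging sites enter the value tested. Wilson intervals (95%) cover counting error only. The limits of 10.7% and 18.8% given for counts of 0 in 28 and 0 in 16 are not Wilson limits. They are 3 divided by the number of sites. BLOSUM62 came from Biopython 1.88. The members and gene lists were chosen with earlier results of these data known; a further gene list is not reported here. Named were all 6 copies, every damaging site, the list copies with the most missense and damaging sites or passing a test, and the 3 nearest pairs. Benign and unpredicted sites, exchange kinds and stretches of sites were named after their values were seen. Alternatives were other site minimums, stricter damage classes, at least 10 aligned residues, and leaving out the 1% of genes richest in sites.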

Additional observations from a re-analysis of the deposited data

How the results depend on the processing

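No paired analysis was possible because each group has 1 library and no column names a library. Over all genes, 66 passed the missense test, 28 with no minimum of sites and 14 when the 1% of genes richest in sites was left out; with at least 10 sites per gene 94 passed, 67 of them higher. For the damaging share 0 passed, and 1 gene, outside the 3 pairs, passed with probably damaging sites only and 1 with a probability of at least 0.9. The damaging tests of akap9 and akap13-like kept their side of the threshold in all 12 comparisons under alternatives that gave a value (Fisher's exact adjusted p from 0.898 to 1). Because no setting passed more than 1 gene and these copies had few predicted sites, this could hardly come out otherwise. It is not read as a sign of stability. In the missense test the fraction of the genes compared with arfgef2-like.L was 42.9% in the main setting. It was 37.6% with at least 10 sites per gene, so the reference changed under that alternative too. The cause of the changes in the counts over all genes was not tested. Copies with few predicted sites dropped out under some alternatives: with at least 10 aligned residues akap9.S alone of the 3 tested copies of akap9 and akap13-like could be tested, with 42.9% of 7 sites damaging. The share of all other genes was 19.0% under that setting. The copies akap9.S and akap13-like.S were among the 1% of genes richest in sites, so leaving out that 1% gave no value for them.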

Other observations

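Neighbouring residues both carried a missense site at 5 places in the 6 copies: V2413E and Q2414K, and E2802Q and M2803I, in akap9.S; V456A and E457V, and V1035E and E1036V, in akap13-like.S; and V1126L and S1127G in pde4dip.L. These 10 sites were 9.17% of the 109, compared with 3.70% of all sites and 6.62% of the sites in genes with at least 7 missense sites. Neighbouring sites become more frequent as sites are added, and akap9 and akap13-like had been selected on missense counts. Nothing further is read from these shares. The changes V1035E and E1036V mirror each other, so that the listed variant residues are the reference residues in reverse order. Whether the 2 changes of such a place occur in the same transcript was not analysed here.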
